A study of Mus musculus with 24 samples.

Results

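RNA sequencing of NK cells from the spleens of mice late after injection of RMA lymphoma cells was set against the same from mice late after injection of RMA-KR lymphoma cells. The comparison holds 6 of the 24 libraries of the series, taken by their labels: 3 from RMA-bearing mice on day 9 and 3 from RMA-KR-bearing mice on day 14. RMA is a mouse T cell lymphoma line. RMA-KR is a clone derived from it that lacks B2m, and with it surface MHC class I, and carries Rae1-β, an NKG2D ligand, on a lentiviral vector that also encodes ZsGreen, a fluorescent protein. RMA cells were given the same vector without Rae1-β. The 24 libraries cover untreated mice (4), early mice on day 2 (3 for each tumor), intermediate mice (3 with RMA on day 4 and 5 with RMA-KR on day 7) and the late mice. The mice were wild-type C57BL/6J females of 7 to 9 weeks, unless the study stated otherwise, and received tumor cells intravenously. NK cells were sorted as negative for lineage markers that included CD3, CD5 and T cell receptor and positive for NKp46 or NK1.1. Tumor and day differ together between the late groups, so the effect of one cannot be told apart from that of the other.

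NK cells integrate signals from activating receptors, among them NKG2D, which binds Rae1 proteins, with signals from inhibitory receptors that bind MHC class I. They kill through granules that carry perforin and granzymes, and cytokines such as type I interferon, IL-15, IL-12 and IL-18 set their readiness to do so. In lymphocytes that meet antigen or tumor for a long time, inhibitory receptors such as Lag3, Tigit and Tim-3 (Havcr2) and the transcription factor Tox are known to accumulate, a state described as exhaustion in T cells.

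The deposited read counts came to 12427430, 11491734 and 9806287 in the RMA libraries and 11753788, 14863500 and 10293704 in the RMA-KR libraries, within the range of 5138651 to 14863500 over the series. The libraries of each group are numbered 1 to 3 as labelled, for example RMA late 1. Levels are given below as CPM, counts scaled to the size of each library after adjustment by trimmed means (TMM). A count of 3 in a late library equals 0.211 to 0.315 CPM, and this was taken as the floor of detection. Of 45237 genes listed, 17097 passed a filter on low counts and were tested, 8260 of them with a mean of at least 10 CPM over the 6 late libraries.

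RMA-KR late 3 stood apart from the others. Its Pearson correlation of log2 CPM across genes was 0.872 to 0.885 with the other 5 late libraries, which correlated at 0.923 to 0.95 with each other. Transcripts of the mitochondrial genome made up 1.71% of its counts against 0.908% to 1.28% in the other 5, and 90 genes with a mean of at least 10 CPM had no count in it, against 0 to 10 in the others. RMA late 3 held counts for more genes than any other late library, 24234 against 15263 to 19436. A range given below with a log2 fold change or a list's median is that over the 6 fits that each left out 1 late library.

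The NK cell label held. The summed level of 10 defining NK cell genes was 36839, 36939 and 31463 CPM in the RMA libraries, 28041, 29484 and 23674 CPM in the RMA-KR libraries and 28322 ± 5569.9 CPM (SD, n = 4) in untreated mice, and all 10 were detected in all 6 late libraries. The genes include Ncr1 (NKp46), Klrb1c (NK1.1), Eomes, Prf1 and Gzma, the most abundant. The summed level of 16 T cell genes was 833, 716 and 691 CPM against 879.7, 623 and 659 CPM. Cd4 and Cd8a had at most 3 counts in each late library, while Trbc1, whose constant-region transcript NK cells also make, was the most abundant at 373, 344 and 325 CPM against 350.5, 279 and 295 CPM. Of the 13 T cell genes tested, 10 were higher in RMA (median log2 fold change 0.29), with 0 at an unadjusted p under 0.05. The median was 0.18 with 2 members at the floor set to their bounds and 1, at the floor in both groups, left out. Cd3g, a chain of the T cell receptor complex, stood at 18.2, 14.7 and 14.3 CPM against 6.41, 8.78 and 0.193 CPM, without overlap, and Cd3d, another chain, at 17.2, 8.47 and 5.04 CPM against 5.25, 5.55 and 3.47 CPM, with overlap. Trac went the other way with overlap, at 16.2, 12.8 and 8.83 CPM against 19.9, 15.3 and 14.9 CPM. So did Cd28, at 93.4, 88.7 and 64.3 CPM against 180.9, 69.4 and 124 CPM. The part of T or tumor cells in the results was not tested.

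By their medians, lists of interferon-stimulated genes, of proteasome and respiratory chain subunits and of MHC class I components leaned to late RMA mice over late RMA-KR mice. The libraries of the groups overlapped for the proteasome and respiratory chain lists, and the MHC class I median was 0.12 without RMA-KR late 3. The list of exhaustion-associated genes leaned to late RMA-KR mice (median -0.31). So did the list that holds early response and heat shock genes (median -0.32). Within it the 25 early response genes leaned to RMA-KR (median -0.53), whereas the 9 heat shock genes tested leaned to RMA (median 0.40). Over each of these 2 whole lists the libraries did not overlap in the median deviation from the 6-library mean (log2 scale). For exhaustion-associated genes, however, RMA-KR late 2 (-0.04) lay close to RMA late 2 (-0.10). In the other list 1 of 34 genes was higher in RMA-KR at an unadjusted p under 0.05 by edgeR (2.94% against 3.04% of all genes). Of single genes, DESeq2 with shrunken fold changes called 12, among them Itgad and Serpine2, lower in RMA, and Lgals1, higher in RMA. None passed adjustment in edgeR's test with the filter on low counts, whereas 28 were called without that filter. The medians of the pathway lists were all below 2-fold. In sequencing of bulk cells, fewer cells of a type and less RNA per cell cannot be told apart.

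With edgeR's quasi-likelihood test and Benjamini-Hochberg adjustment, 0 of 17097 genes (0%) passed at 0.05 after adjustment with a fold change over 2, while 1249 had an unadjusted p under 0.05 and DESeq2 called 56 with default settings and 12 with shrunken fold changes. The smallest edgeR adjusted p was 0.328, shared by Itgad, Gm4956, F2rl2 and Cd52. Genes at an unadjusted p under 0.05 numbered 730 higher in RMA (4.27% of those tested) and 519 higher in RMA-KR (3.04%). Without RMA-KR late 3 they numbered 292 and 309, without RMA late 1 967 and 270, and without RMA late 2 633 and 323. Over the genes tested with all libraries, the share at an unadjusted p under 0.05 higher in RMA was 4.59%, 3.03% and 3.83% without RMA late 1, 2 and 3 and 3.78%, 4.54% and 1.65% without RMA-KR late 1, 2 and 3. The share higher in RMA-KR was 1.53%, 1.84% and 3.77% and then 3.45%, 4.05% and 1.64%, and counts of list members with 1 library left out stand against these. All 3 RMA libraries lay above all 3 RMA-KR libraries for 886 genes (5.18%) and below them for 675 (3.95%). An exact permutation test of 3 against 3 libraries cannot give a p under 0.1. Among the 8260 genes with a mean of at least 10 CPM, 351 (4.25%) and 331 (4.01%) had an unadjusted p under 0.05 higher in RMA and in RMA-KR, and 536 (6.49%) and 469 (5.68%) had groups that did not overlap.

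DESeq2 with shrunken fold changes called 12 of 14393 genes (0.0834%), 5 higher in RMA and 7 higher in RMA-KR, and DESeq2 with default settings called 56 of 15211 (0.368%), 25 and 31. All 12 were among the 56, and in all 12 the 3 RMA libraries did not overlap the 3 RMA-KR libraries. The log2 fold changes given below are from edgeR unless named otherwise, as log2 of RMA over RMA-KR with a standard error (SE), so that a negative value means higher in RMA-KR. Genes named below outside the rule for naming genes were chosen after their values were seen. The median over all genes tested was 0.06, and 0.01 over those of at least 10 CPM.

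**Figure D1:**
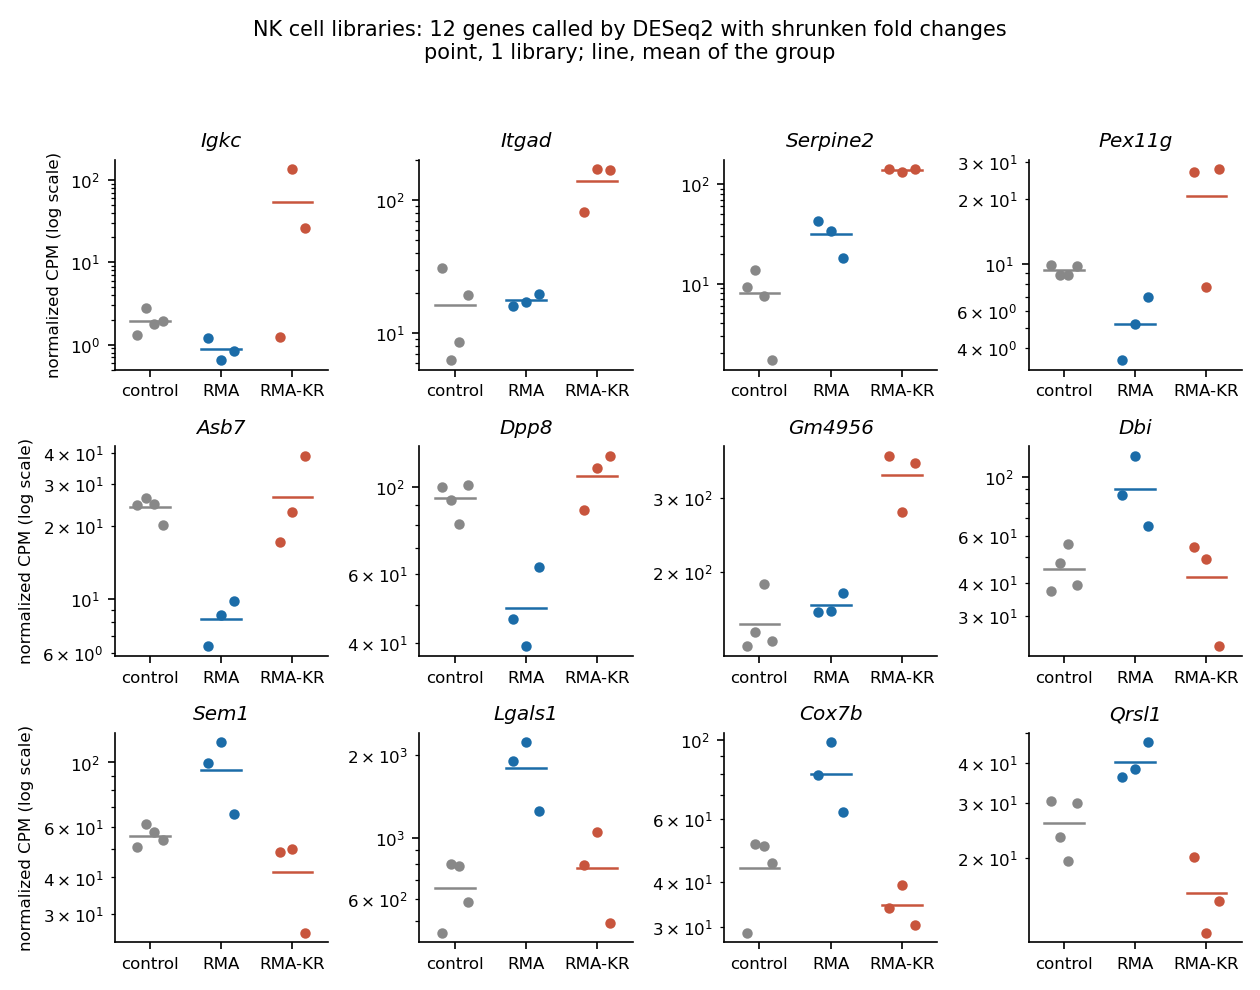
Normalized CPM (log scale) of the 12 genes that DESeq2 called with shrunken fold changes, in each untreated, late RMA and late RMA-KR library; points are libraries and lines are group means. In every panel the 3 RMA libraries lie on one side of the 3 RMA-KR libraries; for Igkc RMA-KR late 1 lies at the level of the RMA libraries.

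Itgad encodes the αD chain of a leukocyte integrin that pairs with CD18 (mm10 chr7:128154376-128223816). It stood at 16.1, 17.3 and 19.5 CPM in the RMA libraries against 82.1, 171 and 169.5 CPM in the RMA-KR libraries. The RMA libraries lay close together, at the level of untreated mice (16.3 ± 11.2 CPM, SD, n = 4), and all 3 RMA-KR libraries were far above them. Its log2 fold change was -2.997 (SE 0.59), with an adjusted p of 0.328 by edgeR and 0.000781 by DESeq2 with shrunken fold changes. Leaving out any 1 late library gave values from -3.27 to -2.83. Itgb3, an integrin subunit of another pair, was also higher in all 3 RMA-KR libraries (51.7, 23.2 and 30.7 CPM against 64.9, 60.1 and 133 CPM).

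Serpine2 encodes protease nexin-1, a secreted inhibitor of thrombin and related proteases (chr1:79794197-79861180). It stood at 42.3, 33.6 and 18.2 CPM in the RMA libraries against 141, 134 and 142 CPM in the RMA-KR libraries. The RMA-KR libraries were nearly equal and the RMA libraries were all lower, with a log2 fold change of -2.15 (SE 0.51) and an adjusted p of 0.646 by edgeR and 0.0161 by DESeq2 with shrunken fold changes. Both late groups were above untreated mice, at 8.004 ± 4.93 CPM (SD, n = 4). On day 2 the order was the opposite, at 25.3 ± 9.41 CPM in RMA and 8.15 ± 2.45 CPM in RMA-KR (SD, n = 3 each).

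Gm4956, annotated as a transcribed pseudogene (chr1:21285246-21298312), stood at 161, 161 and 178 CPM in the RMA libraries against 378, 278 and 362 CPM in the RMA-KR libraries, a log2 fold change of -1.03 (SE 0.21). Dpp8, a cytosolic dipeptidyl peptidase, stood at 45.9, 39.1 and 62.4 CPM in the RMA libraries against 87.6, 112 and 120.5 CPM in the RMA-KR libraries (-1.12, SE 0.25). For Dpp8 the RMA-KR libraries were near untreated mice (93.6 ± 9.65 CPM, SD, n = 4) and the RMA libraries were below both. Asb7, the substrate-binding subunit of a ubiquitin ligase, showed the same order, at 6.36, 8.56 and 9.77 CPM against 17.3, 22.8 and 39.1 CPM and 23.9 ± 2.59 CPM (SD, n = 4) in untreated mice. Pex11g, a peroxisomal membrane protein, stood at 3.53, 5.21 and 6.94 CPM against 26.8, 7.73 and 27.7 CPM, with RMA-KR late 2 just above the RMA libraries. DESeq2 with shrunken fold changes gave adjusted p values of 0.00576, 0.0212, 0.0297 and 0.0481 for these 4 genes.

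Igkc, the constant region of the immunoglobulin κ light chain, had the lowest log2 fold change of the 12, -5.88 (SE 1.69), and rests on 2 libraries. Its counts were 14, 7 and 8 in the RMA libraries and 14, 1903 and 273 in the RMA-KR libraries. RMA-KR late 2 and 3 were high, and leaving out 1 late library gave log2 fold changes from -6.46 to -3.91, the latter without RMA-KR late 2. RMA-KR late 1 was level with the RMA libraries and with untreated mice (1.96 ± 0.625 CPM, SD, n = 4). Of other genes of antibody-secreting cells, Jchain, which joins antibody multimers, was high in the same 2 libraries (0, 0 and 0.210 CPM against 2.40, 17.7 and 13.8 CPM). In RMA-KR late 3, however, Ighg2b, Iglc1, Mzb1, Derl3 and Irf4 had no count. The heavy chain genes Ighg2b and Ighg2c, near-identical copies whose reads cannot be assigned with certainty, reached 116 and 107 CPM in RMA-KR late 2 and at most 1.96 CPM in the other late libraries. The summed level of 13 plasma cell genes was 394, 473 and 349 CPM against 497, 699.8 and 301 CPM; Xbp1, which NK cells also express, made up 129 to 332 CPM of it, lowest in RMA-KR late 3, and Igha had no count in any late library. The part of such cells in other results was not tested.

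Lgals1 encodes galectin-1, a β-galactoside-binding lectin that activated lymphocytes make (chr15:78926725-78930465). It stood at 1889.7, 2221 and 1248 CPM in the RMA libraries against 796, 1049 and 491 CPM in the RMA-KR libraries. The RMA libraries were all above the RMA-KR libraries, which lay around the mean of untreated mice (659 ± 169.7 CPM, SD, n = 4). The log2 fold change was 1.197 (SE 0.26), with an adjusted p of 0.338 by edgeR and 0.0208 by DESeq2 with shrunken fold changes. It was 0.94 without RMA-KR late 3.

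Sem1, a small subunit of the proteasome lid (chr6:6557294-6578663), stood at 99.8, 118 and 66.1 CPM in the RMA libraries against 48.96, 50.4 and 25.7 CPM in the RMA-KR libraries (1.18, SE 0.26). Cox7b, a subunit of cytochrome c oxidase, stood at 79.5, 98.4 and 62.9 CPM in the RMA libraries against 33.7, 39.4 and 30.4 CPM in the RMA-KR libraries (1.22, SE 0.29). Both were higher in RMA than in untreated mice, whose means were 55.8 and 43.9 CPM, and lower in RMA-KR. Dbi, which binds acyl-CoA esters, stood at 85.2, 120.02 and 65.7 CPM against 54.5, 49.3 and 23.1 CPM (1.09, SE 0.29). Qrsl1, needed to charge mitochondrial glutamine tRNA, stood at 36.2, 38.3 and 46.8 CPM against 20.1, 11.5 and 14.6 CPM (1.39, SE 0.35). In all 4 the lowest RMA library was above the highest RMA-KR library, with DESeq2 adjusted p values, after shrinkage, of 0.00477, 0.0282, 0.0461 and 0.00576.

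A pair of surface proteins shared edgeR's smallest adjusted p with Itgad and Gm4956. F2rl2, the thrombin receptor PAR3, stood at 158, 168 and 140.5 CPM in the RMA libraries against 62.4, 83.2 and 79.5 CPM in the RMA-KR libraries (1.05, SE 0.22). Cd52, a short glycoprotein anchored in the lymphocyte membrane, stood at 918, 964 and 651 CPM in the RMA libraries against 503, 376 and 423 CPM in the RMA-KR libraries (0.96, SE 0.20). For both, the RMA-KR libraries were near untreated mice and the RMA libraries were higher. Their DESeq2 adjusted p values with shrunken fold changes, 0.00166 and 0.0185, were below 0.05, but their shrunken fold changes were not above 2. Of the 16 genes with such an adjusted p below 0.05, Tox (0.0461) and Mef2c (0.0351), described below, were in the same position.

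Of genes at an unadjusted p under 0.05 with a mean of at least 10 CPM and no overlap, 210 were higher in RMA and 170 higher in RMA-KR. The 8 largest log2 fold changes among the 210 belonged to Ctbs, CT010467.1, Serpina3f, A430033K04Rik, Ifi27l2a, Ifi44, Nhsl2 and Cxcl10. Serpina3f, a serine protease inhibitor of a family with near-identical members, stood at 157, 139.7 and 132 CPM against 75.2, 24.7 and 29.9 CPM (1.72, SE 0.67), with the RMA libraries above the mean of untreated mice (32.2 ± 18.6 CPM, SD, n = 4). Ctbs, a lysosomal enzyme that cleaves chitobiose, stood at 45.7, 14.7 and 16.2 CPM against 12.3, 11.2 and 1.45 CPM. CT010467.1 is annotated as a ribosomal RNA gene, and stood at 545, 875 and 1568 CPM against 532, 243 and 160.3 CPM. The 8 lowest among the 170 were Igkc, Itgad, Serpine2, Pex11g, Map4k5, Itprid2, Ctsl and Pdk2. Pdk2, a kinase that inhibits pyruvate dehydrogenase, stood at 8.86, 15.6 and 12.8 CPM against 53.1, 19.8 and 70.2 CPM (-1.94, SE 0.55), and Ctsl, a lysosomal cysteine protease, at 1.98, 6.89 and 4.62 CPM against 9.97, 7.66 and 36.5 CPM (-2.003, SE 0.83). For both, the RMA libraries were the lower, with RMA-KR late 2 the closest to them. Ctsl had -0.98 without RMA-KR late 3.

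**Figure D2:**
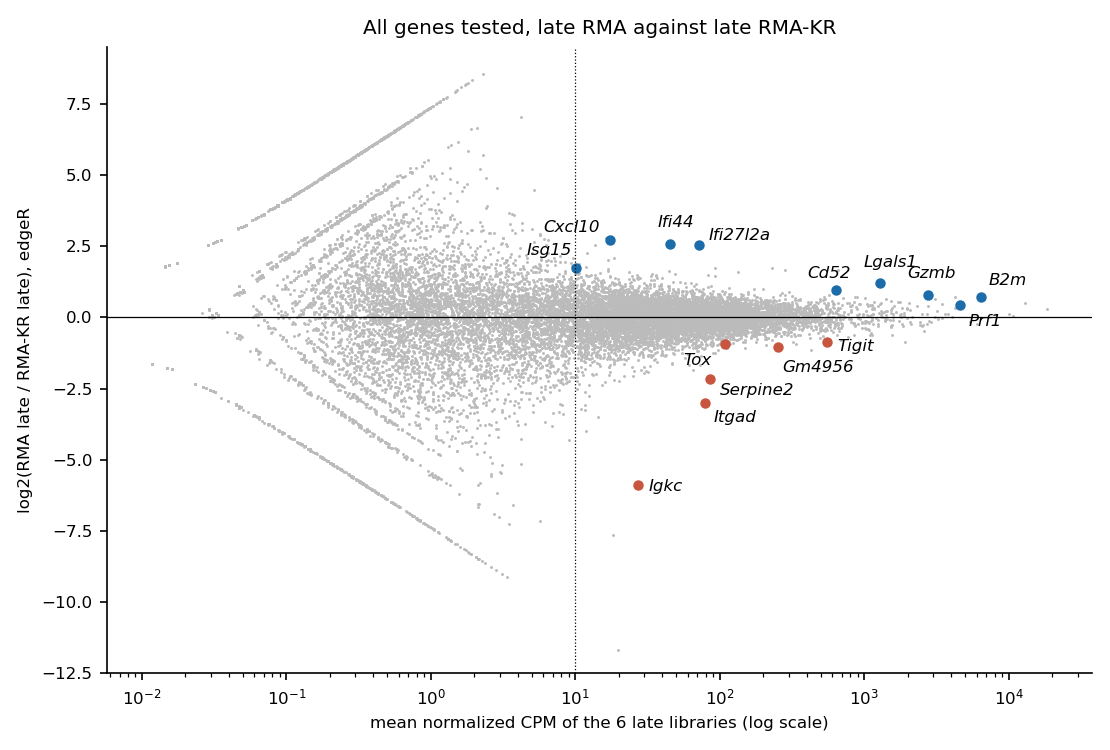
log2 fold change of RMA over RMA-KR against the mean normalized CPM (log scale) of the 6 late libraries, for each gene tested with a count in them; colored points are named genes and the dotted line marks 10 CPM. The slanting lines of points at low levels are genes with 1 late group at or near 0 counts, whose fitted values depend on the added prior count.

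Interferon-stimulated genes were the list with the largest median difference among the pathway lists. Of 52 listed genes 51 were tested, and 40 of these lay higher in RMA (median log2 fold change 0.70 against 0.06 over all genes tested). At an unadjusted p under 0.05, 15 were higher in RMA (29.4% against 4.27% of all genes) and 0 were higher in RMA-KR by edgeR, before adjustment, while DESeq2 with default settings gave 16 and 0. The 3 and 3 libraries did not overlap for 19 members, each higher in RMA (37.3% against 5.18%). The median over members of the deviation from the 6-library mean, on the log2 scale, was 0.36, 0.66 and 0.19 in the RMA libraries and -0.54, -0.25 and -0.18 in the RMA-KR libraries. All RMA libraries thus lay above all RMA-KR libraries, with RMA late 2 highest and RMA-KR late 1 lowest.

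Without RMA-KR late 3 the median was 0.67, with 14 members at an unadjusted p under 0.05, and leaving out any 1 late library kept the median within 0.51 to 0.84. The number at an unadjusted p under 0.05 was 5 without RMA late 2 and 7 without RMA-KR late 1. The same list had medians of 0.43 on day 2 and 0.97 at the intermediate stage, for RMA over RMA-KR in other mice. Against untreated mice its median was 1.04 for late RMA mice and 0.38 for late RMA-KR mice, which share those untreated libraries.

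Among the antiviral effectors, 22 of 29 were higher in RMA and the median was 0.86. Ifi27l2a, a small protein induced by type I interferon, stood at 122, 142 and 102 CPM in the RMA libraries against 25.6, 20.03 and 16.4 CPM in the RMA-KR libraries (2.56, SE 0.97). Every late library was above untreated mice, where it stood at 2.03 ± 2.65 CPM (SD, n = 4), and the RMA libraries were the highest. Ifi44 stood at 73.2, 108 and 52.2 CPM in the RMA libraries against 1.34, 20.8 and 16.5 CPM in the RMA-KR libraries (2.59, SE 0.89), with RMA-KR late 1 far below the other 5. Ifit3, an RNA-binding protein that restricts viral translation, stood at 28.03, 36.2 and 17.8 CPM against 14.7, 5.13 and 11.4 CPM (1.39, SE 0.74). Rsad2, the antiviral enzyme viperin, stood at 13.9, 24.9 and 16.4 CPM against 3.47, 6.32 and 13.5 CPM, and Isg15, a ubiquitin-like modifier, at 14.2, 25.5 and 7.25 CPM against 1.69, 8.15 and 4.05 CPM. The Rsad2 groups were close, since RMA-KR late 3 nearly reached the lowest RMA library, and the Isg15 groups overlapped in 1 library of each. Trim30a and Xaf1 were higher in all 3 RMA libraries, with log2 fold changes of 0.76 (SE 0.19) and 0.86 (SE 0.29).

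Of the regulators of the response, Usp18, which removes Isg15 from proteins and restrains the receptor, had a log2 fold change of 1.01 (SE 0.42) with overlapping groups. The list of guanylate-binding proteins and immunity-related GTPases had 9 of 10 higher in RMA, with a smaller median of 0.32 and 4 at an unadjusted p under 0.05 (40% against 4.27% of all genes): Gbp3, Igtp, Gbp6 and Irgm1. Cxcl10, a chemokine induced by both types of interferon, stood at 25.4, 38.1 and 27.01 CPM in the RMA libraries against 3.56, 4.01 and 6.07 CPM in the RMA-KR libraries (2.73, SE 1.03). Its RMA-KR libraries were below the mean of untreated mice (7.39 ± 4.98 CPM, SD, n = 4) and its RMA libraries above it.

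The promoters of these genes were also examined. RefSeq start sites on GRCm38.p6 gave 300 bases for 36 of the listed genes. The letters GAAANNGAA, the core of the interferon-stimulated response element, were searched on both strands and found in 25 of the 36 (69.4%), against 2638 of 27025 genes with a promoter (9.76%) and 605 of 6607 genes of at least 10 CPM (9.16%). Among members at an unadjusted p under 0.05 the letters were found in 7 of 9, and among members whose groups did not overlap in 7 of 11. A match describes the letters and is not a measured binding site. The promoters of Isg15 (chr4:156200769-156201068), Ifi44 (chr3:151749861-151750160) and Cxcl10 (chr5:92348840-92349139), all on the minus strand and written from 5′ to 3′, carry matches on either strand, overlapping in Isg15, which are given in capitals.
Isg15: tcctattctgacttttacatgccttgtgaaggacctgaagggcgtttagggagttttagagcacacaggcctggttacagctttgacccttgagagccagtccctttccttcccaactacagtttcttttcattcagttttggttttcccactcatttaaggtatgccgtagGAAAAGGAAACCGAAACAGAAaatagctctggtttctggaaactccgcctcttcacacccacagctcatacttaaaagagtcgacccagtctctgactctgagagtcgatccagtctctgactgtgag
Ifi44: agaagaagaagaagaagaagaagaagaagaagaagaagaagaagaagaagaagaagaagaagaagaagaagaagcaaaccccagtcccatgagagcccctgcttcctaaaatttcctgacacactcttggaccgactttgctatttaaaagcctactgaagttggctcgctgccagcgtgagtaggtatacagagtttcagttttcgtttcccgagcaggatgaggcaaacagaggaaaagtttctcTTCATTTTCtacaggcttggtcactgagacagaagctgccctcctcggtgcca
Cxcl10: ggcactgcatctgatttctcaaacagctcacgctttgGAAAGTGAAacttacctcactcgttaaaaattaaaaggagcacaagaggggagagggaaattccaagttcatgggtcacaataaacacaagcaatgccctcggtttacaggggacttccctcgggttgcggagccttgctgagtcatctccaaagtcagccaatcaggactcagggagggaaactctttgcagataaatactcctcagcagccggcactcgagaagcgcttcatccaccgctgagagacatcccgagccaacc

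Genes that make and load MHC class I, which interferon also induces, were mostly higher in RMA, 15 of 18 with a median of 0.26 (range 0.12 to 0.43). At an unadjusted p under 0.05 there were 5 of them (27.8% against 4.27% of all genes): B2m, H2-Q7, H2-Q4, H2-T23 and Tapbp. B2m, the light chain, stood at 8324, 9056 and 6381 CPM in the RMA libraries against 5108, 5232 and 4265 CPM in the RMA-KR libraries (0.70, SE 0.20). All RMA libraries were above all RMA-KR libraries, which lay near untreated mice (4784 ± 1414 CPM, SD, n = 4). B2m is also the gene disrupted in the RMA-KR tumor cells, whereas the libraries are of sorted NK cells. H2-Q7 and H2-Q4 belong to a family of near-identical copies, so their own values are uncertain. Without RMA-KR late 3 the median was 0.12, with 1 member at an unadjusted p under 0.05, and without RMA late 2, RMA late 3 or RMA-KR late 1 there were 3 such members.

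All 37 proteasome genes tested were higher in RMA, with a median of 0.49 (range 0.37 to 0.61), and 19 had an unadjusted p under 0.05 (51.4% against 4.27% of all genes). The direction was shared by the 14 core subunits (median 0.54), the 5 immunoproteasome and activator subunits (0.57) and the 18 subunits of the regulatory particle (0.33). Psmb8, a catalytic subunit of the immunoproteasome, stood at 752, 762 and 622 CPM in the RMA libraries against 529, 539 and 376 CPM in the RMA-KR libraries (0.57, SE 0.18). Psme1, the α subunit of its activator, stood at 415, 506 and 388 CPM in the RMA libraries against 260.4, 288 and 284 CPM in the RMA-KR libraries (0.65, SE 0.16), and Psme2, the β subunit, at 148, 170.2 and 90.5 CPM against 67.2, 91.6 and 54.8 CPM. For Psmb8 and Psme1 the groups did not overlap, whereas for Psme2 RMA late 3 lay just below RMA-KR late 2. Over the list the libraries overlapped in the same place, with deviations of 0.41, 0.40 and -0.07 in the RMA libraries and -0.15, -0.06 and -0.43 in the RMA-KR libraries. Without RMA-KR late 3 the median was 0.37 with 6 members at an unadjusted p under 0.05, and without RMA late 2 0.41 with 8.

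Nuclear genes of the respiratory chain showed the same direction. Of 78 subunits, 73 were higher in RMA, with a median of 0.54 (range 0.36 to 0.66). At an unadjusted p under 0.05, 35 were higher in RMA (44.9% against 4.27% of all genes). The medians were 0.54 for complex I, 0.51 for complex III, 0.61 for complex IV and 0.56 for ATP synthase. For complex II the median was 0.15, with 2 of 4 subunits higher in RMA. Cox6b1, of complex IV, stood at 198, 221 and 125 CPM against 108, 114 and 92.1 CPM in RMA and RMA-KR, and Ndufa4 at 147, 195 and 82.5 CPM against 68.5, 92.6 and 64.7 CPM. RMA late 3 was the lowest of its group for both, and for Ndufa4 it lay within the RMA-KR range. Of the 5 subunits higher in RMA-KR, the groups did not overlap for 2 (2.56% of the list against 3.95% of all genes). These were Sdha and Ndufa10, of complexes II and I (-0.22 and -0.26). The deviations over the list were 0.40, 0.47 and -0.11 in the RMA libraries and -0.07, -0.13 and -0.56 in the RMA-KR libraries, so that RMA late 3 lay below RMA-KR late 1. Without RMA-KR late 3 the list's median was 0.36 with 11 members at an unadjusted p under 0.05, without RMA late 2 0.37 with 10, and without RMA late 1 0.50 with 20.

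The genes of the mitochondrial genome itself went the other way, with 1 of 8 tested higher in RMA and a median of -0.28 (range -0.48 to -0.06). mt-Nd5 stood at 881, 943 and 804 CPM in the RMA libraries against 1038, 929.6 and 1536 CPM in the RMA-KR libraries. Its value was highest in RMA-KR late 3. Over the list the deviations were 0.09, 0.05 and -0.62 in the RMA libraries and 0.05, -0.08 and 0.58 in the RMA-KR libraries, with RMA late 3 the lowest and RMA-KR late 3 the highest, and the median was -0.06 without the former and -0.09 without the latter. Ribosomal protein genes leaned to RMA. 67 of 79 cytosolic ones were higher in RMA (median 0.40), as were 68 of 77 mitochondrial ones (median 0.47). For the cytosolic ones the groups did not overlap in 28 (35.4% against 5.18% of all genes), while 6 had an unadjusted p under 0.05 (7.59% against 4.27%), and 1 did without RMA-KR late 3 or with the length trend described below removed, and 0 without RMA late 2. For the mitochondrial ones 12 (15.6%) did not overlap and 6 (7.79%) had such a p, or 1 without RMA-KR late 3 and 2 without RMA late 1 or RMA late 2. Rps3, of the small cytosolic subunit, stood at 1228, 1279 and 1143 CPM in the RMA libraries against 1020.2, 996 and 746 CPM in the RMA-KR libraries (0.40, SE 0.18, range 0.26 to 0.48), with every RMA library above every RMA-KR library. Without RMA-KR late 3 the medians were 0.30 and 0.25.

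The respiratory chain, proteasome and ribosomal lists hold short genes, and the difference varied with length. Over the 8260 genes of at least 10 CPM in 5 bins of transcript length, the median log2 fold change went from 0.13 in the shortest to -0.15 in the longest. The share of genes higher in RMA at an unadjusted p under 0.05 went from 7.75% to 1.39%, and that of genes higher in RMA-KR from 2.60% to 6.00%. Across genes, which are not independent replicates, Spearman's rho between length and log2 fold change was -0.20. RMA-KR late 3 lay at -0.20 from the 6-library mean for the shortest genes and at 0.18 for the longest, and RMA late 3 sloped in the same direction as the RMA-KR libraries. With a trend on length removed from each library, the medians were 0.42 for the respiratory chain, 0.43 for the proteasome, 0.31 for cytosolic ribosomal proteins and 0.72 for interferon-stimulated genes, whose median length of 1720.5 bases was above the 1504 bases of all genes tested. Whether RNA quality has a part in this trend was not tested.

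**Figure D3:**
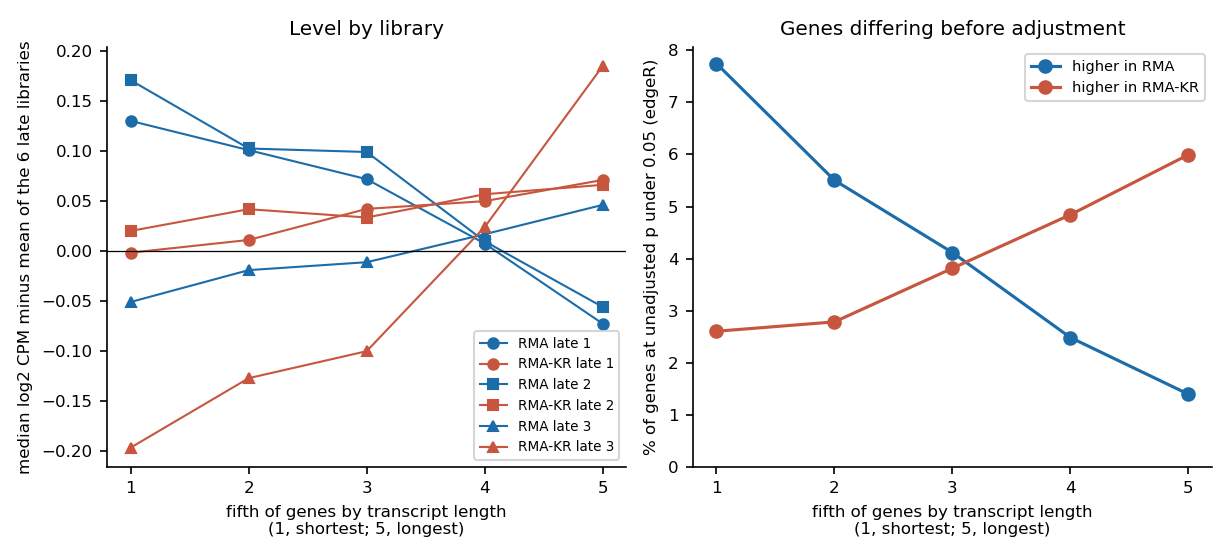
Left, median over genes of log2 CPM minus its mean over the 6 late libraries, by bin of transcript length (5 bins), for each library; right, percent of genes at an unadjusted p under 0.05 (edgeR) in each direction, over 8260 genes of at least 10 CPM. The share higher in RMA went from 7.75% in the shortest bin to 1.39% in the longest, and that higher in RMA-KR from 2.60% to 6.00%.

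Genes of DNA replication were higher in RMA in all 53 of 53 cases, with a median of 0.46 (range 0.20 to 0.84), yet the libraries of the groups overlapped. The deviations over the list were 0.40, 0.80 and -0.35 in the RMA libraries and -0.52, 0.33 and -0.60 in the RMA-KR libraries, so that RMA-KR late 2 lay above RMA late 3 and near RMA late 1. By edgeR 2 of the 53 had an unadjusted p under 0.05, 3.77% against 4.27% of all genes: Pcna, the sliding clamp of replication, at 222, 286 and 163 CPM against 95.3, 198 and 110.1 CPM, and Prim1, a primase subunit, at 143, 232 and 73.9 CPM against 69.5, 134 and 48.7 CPM. The number was 13 without RMA-KR late 2 (24.5% against 4.54%), 7 without RMA late 3 (13.2% against 3.83%), and 0 without RMA late 2, RMA-KR late 1 or RMA-KR late 3. Genes of G2 and mitosis were higher in RMA in 54 of 64 cases (median 0.38, range 0.11 to 0.68, the lowest without RMA-KR late 3), with the same library pattern.

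Against untreated mice the mitotic list had medians of 3.45 for late RMA mice and 3.13 for late RMA-KR mice. Mki67, which marks cycling cells, stood at 314, 328 and 260.5 CPM in the RMA libraries against 243, 334 and 289.9 CPM in the RMA-KR libraries and at 33.2 ± 26.8 CPM (SD, n = 4) in untreated mice. Both late groups were far above untreated mice and overlapped each other (0.06, SE 0.86, or -0.02 without RMA late 2 and -0.05 without RMA-KR late 1). Histone genes, many of them near-identical copies whose reads are uncertain, were higher in RMA in 45 of 52 cases (median 0.50, range 0.31 to 0.87), with 1 at an unadjusted p under 0.05 (1.92% against 4.27% of all genes) and 11 whose groups did not overlap (21.2% against 5.18%). Cholesterol synthesis genes were higher in RMA in 18 of 20 cases (median 0.46), with 0 at an unadjusted p under 0.05. With fatty acid synthesis genes included, 21 of 27 were higher in RMA (median 0.34). Over that whole list RMA-KR late 2 again lay among the RMA libraries.

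Among NK effector genes, 24 of 34 were higher in RMA with a median of 0.11 (range 0.10 to 0.24). The granule proteins had 10 of 13 higher in RMA with a median of 0.45, and cytokines and chemokines 10 of 15 with a median of 0.09. Gzmb, the protease granzyme B (chr14:56258838-56262260), stood at 3249, 4043 and 3328 CPM in the RMA libraries against 1635, 2552 and 1889 CPM in the RMA-KR libraries (0.81, SE 0.32, range 0.68 to 1.01). Every RMA library was above every RMA-KR library, its adjusted p by DESeq2 was 0.427 with default settings, and the RMA-KR libraries lay near untreated mice (1564 ± 939 CPM, SD, n = 4). Prf1, the pore-forming protein perforin, stood at 5249.6, 5179 and 5501 CPM in the RMA libraries against 4007, 4860.3 and 2809 CPM in the RMA-KR libraries (0.45, SE 0.24), and Gzma, granzyme A, at 16390.3, 16442 and 12806 CPM in the RMA libraries against 11065, 11789 and 8914 CPM in the RMA-KR libraries (0.52, SE 0.32). Neither gene's groups overlapped, and neither had an unadjusted p under 0.05. Leaving out RMA-KR late 3 gave 0.25 for Prf1 (range 0.25 to 0.64) and 0.40 for Gzma. Ctsw, a cysteine protease of NK granules, stood at 1513, 1515 and 1584 CPM against 959.5, 1192 and 1092 CPM (0.51, SE 0.13). Gzmk, another granzyme, was higher in all 3 RMA-KR libraries (-1.05).

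Among cytokines and chemokines the groups did not overlap for Ccl4 alone, which was higher in RMA (0.55, SE 0.56). That is 6.67% of the 15 against 5.18% of all genes. At an unadjusted p under 0.05 by edgeR, 1 was higher in RMA (6.67% against 4.27%) and 1 in RMA-KR (6.67% against 3.04%). Ifng, which encodes interferon-γ, stood at 542, 562 and 449 CPM in the RMA libraries against 408, 349 and 512 CPM in the RMA-KR libraries (0.29, SE 0.56, range 0.17 to 0.44), with both groups above the mean of untreated mice (244 ± 133 CPM, SD, n = 4). The chemokine genes Ccl3 and Ccl5 had log2 fold changes of 0.09 (SE 0.67) and 0.03 (SE 0.24), which turned to -0.0038 without RMA-KR late 1 for Ccl3 and to -0.13 without RMA-KR late 2 for Ccl5. Ccl5 was also below 0 without RMA late 3 (-0.05) or RMA-KR late 3 (-0.0017), and with the length trend removed (-0.09). Csf2, a growth factor for myeloid cells, was low and overlapped at 0.801 to 7.61 CPM, and its log2 fold change of -0.54 was 0.55 without RMA-KR late 3. Xcl1, which attracts cross-presenting dendritic cells, stood at 146, 173 and 61.1 CPM against 45.1, 87.1 and 88.9 CPM (0.78, SE 0.32, range 0.49 to 1.12), with RMA late 3 inside the RMA-KR range. Lamp1, the protein read as CD107a on degranulating cells, stood at 283, 246 and 226 CPM against 216, 319 and 257 CPM (-0.07, SE 0.25, or 0.0088 without RMA late 3 and 0.09 without RMA-KR late 2). Cd69, an early activation antigen, also overlapped (-0.11, SE 0.54, or 0.10 without RMA-KR late 3).

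Activating receptors and their signalling proteins had 25 of 51 members higher in RMA, with a median of -0.01. Of these 51, 7 were higher in RMA at an unadjusted p under 0.05 (13.7% against 4.27% of all genes) and 3 in RMA-KR (5.88% against 3.04%), or 4 and 0 without RMA-KR late 3. The groups did not overlap for 7 higher in RMA (13.7% against 5.18%) and 0 higher in RMA-KR. The median turned positive, 0.03 to 0.10, with any 1 late library left out. Klrk1, the NKG2D receptor for Rae1 proteins (chr6:129610323-129623864), stood at 2143, 2149 and 2207 CPM in the RMA libraries against 2603, 1549 and 2295 CPM in the RMA-KR libraries (0.01, SE 0.19). The RMA libraries lay within the RMA-KR range, and untreated mice had 2457 ± 284 CPM (SD, n = 4). Leaving out RMA-KR late 2 gave -0.18, and leaving out RMA-KR late 1 gave 0.18. Klrb1c, which encodes NK1.1, overlapped likewise (0.13, SE 0.18, or 0.03 without RMA-KR late 3). Ncr1, which encodes NKp46, stood at 3576, 3474 and 2381 CPM against 1625, 3036 and 2477 CPM (0.40, SE 0.18, range 0.19 to 0.62), where RMA late 3 fell among the RMA-KR libraries. Tyrobp, the adaptor DAP12 that carries the signal of Ly49D and NKG2D, stood at 1945, 1804 and 1426 CPM in the RMA libraries against 1144, 1236 and 932 CPM in the RMA-KR libraries (0.64, SE 0.18). Its RMA libraries were all higher, and the RMA-KR libraries were below the mean of untreated mice (1643 ± 261 CPM, SD, n = 4). Klrb1a, Sh2d1b1 and Fcer1g were higher in RMA (0.55, 0.62 and 0.46), and Cd226, the DNAM-1 receptor, had a log2 fold change of 1.23 (SE 0.40, range 0.88 to 1.91) with overlapping groups.

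Of 37 inhibitory receptors and phosphatases 20 were higher in RMA (median 0.07, range 0 to 0.24), and at an unadjusted p under 0.05 there were 3 higher in RMA (8.11% against 4.27% of all genes) and 7 higher in RMA-KR (18.9% against 3.04%), or 4 and 2 without RMA-KR late 3. Among the receptors, 6 of 7 Ly49 genes were higher in RMA (median 0.48), led by Klra1 (479, 423 and 266 CPM against 210.01, 235 and 183 CPM). Ly49 genes are near-identical, so single members are uncertain, and Klra4, which encodes the activating Ly49D, had a log2 fold change of -0.11 (SE 0.18), or 0.09 without RMA-KR late 1. Phosphatases and other negative regulators of signalling leaned to RMA-KR by their median of -0.38, with 12 of 21 higher there. With the length trend removed, the median of the whole list of 37 was 0, with 18 higher in RMA. Inpp5d, the lipid phosphatase SHIP-1, stood at 208, 260.1 and 324 CPM in the RMA libraries against 318, 414 and 447 CPM in the RMA-KR libraries (-0.57, SE 0.21, range -0.74 to -0.38), and Ptpn22, a tyrosine phosphatase, at 514, 406 and 616 CPM against 1106, 598 and 647 CPM (-0.61, SE 0.21, range -0.78 to -0.28). Both overlapped in 1 library of each group. The ubiquitin ligases Cblb and Cbl, which dampen receptor signals, had log2 fold changes of -0.77 (SE 0.30) and -0.52 (SE 0.22). Ptpn6 (SHP-1) and Ubash3a went the other way, at 0.61 (SE 0.23) and 0.89 (SE 0.32).

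**Figure D4:**
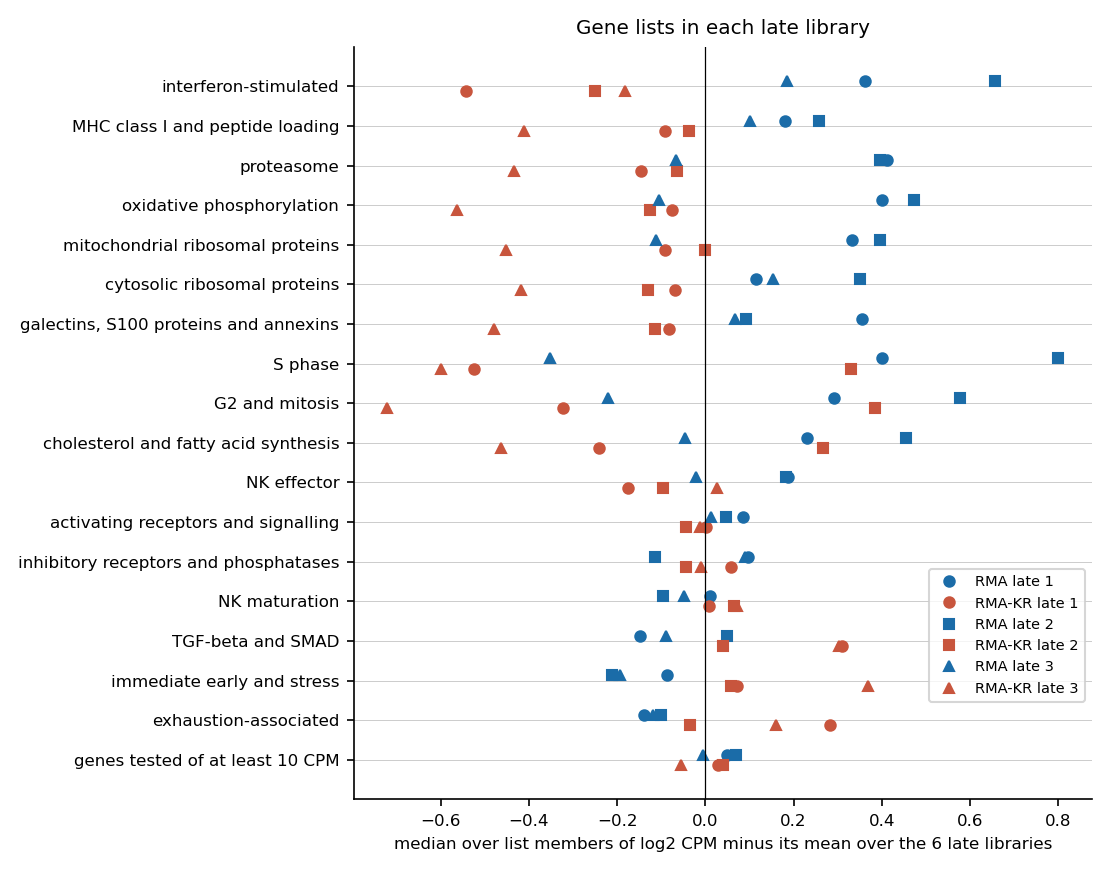
For 17 gene lists and for all genes of at least 10 CPM, the median over members of log2 CPM minus its mean over the 6 late libraries, 1 point per library (circle, square and triangle for replicates 1, 2 and 3; blue, RMA; red, RMA-KR). The interferon-stimulated list lies at 0.19 to 0.66 in the RMA libraries and at -0.54 to -0.18 in the RMA-KR libraries, whereas the libraries interleave for the S phase list.

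Genes associated with exhaustion were mostly higher in RMA-KR, 31 of 45 with a median of -0.31. At an unadjusted p under 0.05, 7 were higher in RMA-KR (15.6% against 3.04% of all genes) and 1, Isg15, in RMA. The groups did not overlap for 9 members higher in RMA-KR (20% against 3.95%) and 2 higher in RMA (4.44% against 5.18%). Without RMA late 1, RMA late 2, RMA-KR late 1 or RMA-KR late 3 the number at an unadjusted p under 0.05 higher in RMA-KR was 5, and with only the 6 late libraries it was 11 of 42 (26.2% against 2.97%). The median was -0.45 without RMA-KR late 3 and within -0.54 to -0.22 over all single omissions. Of the list's 50 genes, 30 also belong to another list. Tox, a transcription factor of exhausted T cells (chr4:6686353-6991557), stood at 92.5, 69.6 and 63.6 CPM in the RMA libraries against 165, 120.2 and 142 CPM in the RMA-KR libraries (-0.92, SE 0.23). RMA late 2 and 3 were at the level of untreated mice (69.7 ± 6.87 CPM, SD, n = 4) and RMA late 1 was above it. All RMA-KR libraries were higher than the RMA libraries.

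Receptors targeted as immune checkpoints were mixed, with 7 of 18 higher in RMA and a median of -0.08 (-0.13 with the member at the floor set to its bound, range -0.40 to 0.03, the highest without RMA-KR late 1). Lag3, which binds MHC class II, stood at 67.4, 89.9 and 70.5 CPM in the RMA libraries against 115, 144 and 109.9 CPM in the RMA-KR libraries, with no overlap but a log2 fold change of -0.70 beside an SE of 0.90. Both late groups were above untreated mice (15.999 ± 5.72 CPM, SD, n = 4). Tigit, which competes with Cd226 for ligands, stood at 383, 284 and 511 CPM in the RMA libraries against 1274, 391 and 484 CPM in the RMA-KR libraries (-0.87, SE 0.39). RMA-KR late 1 was far above the other 5, which overlapped, and without it the log2 fold change was -0.15. Havcr2 (Tim-3) stood at 20.1, 7.26 and 4.83 CPM against 30.6, 41.1 and 14.5 CPM, and Nt5e, the adenosine-producing enzyme CD73, at 15.4, 7.35 and 23.4 CPM against 88.2, 10.8 and 50.98 CPM. For each of them 1 RMA-KR library lay within the RMA range. Pdcd1, which encodes PD-1, reached at most 1.78 CPM in any late library and was not tested. Cd200r1, an inhibitory receptor, was at or under the floor of 3 counts in all RMA libraries and stood at 0.534, 3.86 and 17.5 CPM in RMA-KR, against 5.08 ± 3.90 CPM (SD, n = 4) in untreated mice.

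Of 41 genes of NK cell maturation 17 were higher in RMA (median -0.06, range -0.16 to -0.07), and with the length trend removed 22 were (median 0.03). There were 3 at an unadjusted p under 0.05 higher in RMA (7.32% against 4.27% of all genes) and 5 higher in RMA-KR (12.2% against 3.04%). The former fell to 1 without RMA-KR late 1, and the latter to 3 without RMA late 1 or RMA-KR late 3. Within the list, the transcription factors were mostly higher in RMA-KR, 16 of 21 with a median of -0.29, and the surface markers had 7 of 13 higher in RMA, with a median of 0.20. Eomes, a T-box factor that defines NK cells (chr9:118478212-118486132), stood at 173, 181 and 192 CPM in the RMA libraries against 217, 253 and 305 CPM in the RMA-KR libraries (-0.50, SE 0.20). The groups did not overlap, and the RMA libraries were the farther from untreated mice (306 ± 61.6 CPM, SD, n = 4). The value was -0.38 both without RMA-KR late 3 and with the length trend removed, with unadjusted p values of 0.101 and 0.0743. Ets1 stood at 1323, 1059.8 and 1276 CPM against 2167, 1493 and 2004 CPM (-0.63, SE 0.19), with the RMA libraries at the level of untreated mice. Ikzf1, Ikzf2 and Runx3 were also higher in all 3 RMA-KR libraries (-0.37, -1.06 and -0.35), while Id2, which restrains E proteins, was higher in all 3 RMA libraries (0.32). Mef2c stood at 53.8, 37.9 and 51.1 CPM against 105, 75.1 and 108 CPM (-1.01, SE 0.26), without overlap. Ly6c2, a surface marker of mature and activated lymphocytes, was lower in both late groups than in untreated mice and higher in RMA than in RMA-KR (176, 279 and 154 CPM against 76.4, 147 and 107 CPM).

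Early response genes, many of them for AP-1 subunits, were lower in RMA in 24 of 25 cases, with a median of -0.53. For 5 of them, Fos, Jun, Ier2, Zfp36 and Btg2, the groups did not overlap (-0.80, -0.65, -0.24, -1.15 and -0.63), which is 20% against 3.95% of all genes. None of the 5 had an unadjusted p under 0.05, and the 1 gene of the 25 that did, Egr1, is 4% against 3.04% of all genes. Jun stood at 396, 363 and 453 CPM against 481, 666 and 751 CPM and Fos at 475, 403 and 649 CPM against 996, 699.6 and 957 CPM. The list as a whole also holds 10 heat shock genes, and the 9 of them tested leaned to RMA (7 of 9, median 0.40). Over all its 34 genes tested the median was -0.32 and the deviations were -0.09, -0.21 and -0.19 in the RMA libraries and 0.07, 0.06 and 0.37 in the RMA-KR libraries, with RMA-KR late 3 the highest. Egr1, a growth-response factor, stood at 26.9, 36.6 and 35.1 CPM against 35.6, 80.7 and 116 CPM (-1.24, SE 0.41). Its value was -0.84 without RMA-KR late 3, with an unadjusted p of 0.0677, which leaves 0 such members in the list. Over the same list, heat shock genes included, 8 of 33 were higher in RMA-KR at that threshold in a fit of only the 6 late libraries (24.2% against 2.97% of all genes) and 12 of 35 without a filter on counts (34.3% against 4.88%).

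Receptors and SMAD proteins of the TGF-β pathway were higher in RMA-KR in 9 of 11 cases (median -0.30), and over the whole list in 14 of 20 (median -0.24, range -0.39 to -0.08, the latter without RMA-KR late 1, and -0.14 with the length trend removed). With 1 member at the floor set to its bound, the list's median was -0.14. Runx1, a partner of SMAD proteins (chr16:92601466-92826149), stood at 122, 119.9 and 138 CPM in the RMA libraries against 227, 224 and 234 CPM in the RMA-KR libraries (-0.85, SE 0.25), and Tgif1, a SMAD corepressor, at 58.05, 35.3 and 66.6 CPM against 157, 86.8 and 136 CPM (-1.25, SE 0.49). For both, the groups did not overlap, and for Runx1 each kept to a narrow range. Itga1, an integrin that TGF-β raises in tissue-resident cells, was low in all late libraries and overlapped (8.86, 14.05 and 1.47 CPM against 5.79, 2.74 and 12.6 CPM), with a log2 fold change of 0.21 that was -0.44 without RMA late 2 and -0.17 without RMA-KR late 2. Summed over 8 genes of the related type 1 innate lymphoid cells, levels were 44.6, 45.6 and 25.8 CPM against 32.6, 29.3 and 83.3 CPM, with RMA-KR late 3 highest and Zfp683 at 0 in all 6.

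Cytokine response lists were divided in direction. Of 26 genes of the IL-2 and IL-15 response 13 were higher in RMA (median -0.01), and of 26 genes of the IL-12 and IL-18 response 13 (median -0.02). Leaving out 1 library turned the sign of either, with ranges of -0.12 to 0.11 and -0.06 to 0.07. The former had 3 at an unadjusted p under 0.05 higher in RMA (11.5% against 4.27% of all genes) and 1 higher in RMA-KR (3.85% against 3.04%). The 3 fell to 1 without RMA-KR late 1 or RMA-KR late 3. The latter had 6 (23.1%) and 0, with 2 higher in RMA without RMA-KR late 3 or RMA late 2. The groups did not overlap for 4 and 1 members of the former and for 7 and 1 of the latter (15.4% and 26.9% higher in RMA against 5.18%). The 1 higher in RMA-KR is 3.85% of either list against 3.95% of all genes. In the first, the receptor chains and STAT5 genes leaned to RMA-KR (6 of 7 higher there). Jak1, a kinase of cytokine receptors, stood at 2251, 1936 and 2355 CPM against 3743, 2433 and 2917 CPM (-0.48, SE 0.15, range -0.61 to -0.29), and Il2rb, the β chain for IL-2 and IL-15, at 2263, 2401 and 2251 CPM against 2224, 3524 and 2622 CPM (-0.28, SE 0.18, range -0.41 to -0.07). Socs1, an interferon- and cytokine-induced inhibitor of those kinases, stood at 32.8, 32.8 and 31.8 CPM against 17.9, 20.5 and 18.3 CPM, nearly constant within each group and without overlap. Il2ra, the α chain of the IL-2 receptor, had no count in any RMA-KR library and stood at 5.42, 1.21 and 0.210 CPM in RMA, which is 2 counts in RMA late 3. Myd88, the adaptor of the IL-18 receptor, was higher in all 3 RMA libraries (0.49, SE 0.20, or 0.23 without RMA-KR late 3).

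Lists of metabolism and survival showed small medians. Glycolysis genes were higher in RMA in 13 of 18 cases (median 0.21, range 0.08 to 0.27), with Ldha, lactate dehydrogenase A, at 1844, 1643 and 975 CPM against 1049.9, 1312 and 884 CPM. Hk2, a hexokinase, stood at 0, 0.465 and 0 CPM in RMA and 2.49, 2.11 and 10.4 CPM in RMA-KR. Genes of amino acid supply, ATF4 and mTORC1 were higher in RMA in 25 of 42 (median 0.18, at the bounds 0.15, range 0.06 to 0.29), while its 1 member at an unadjusted p under 0.05, the glutamine transporter Slc1a5, was lower in all 3 RMA libraries (-0.37, SE 0.17). That member is 2.38% of the list against 3.04% of all genes, and without RMA-KR late 2 there were 6 higher in RMA (14.3% against 4.54%). In the BCL2 family 5 of 14 were higher in RMA (median -0.25, range -0.31 to -0.03, the latter without RMA-KR late 3), and Bcl2l11, the death-promoting Bim, had a log2 fold change of -0.77 (SE 0.26, range -1.02 to -0.44) with overlap. TNF superfamily genes were higher in RMA in 14 of 23 (median 0.22, at the bounds 0.17, range 0.04 to 0.14) and migration receptors in 10 of 27 (median -0.06, at the bounds -0.09, range -0.11 to -0.01, and 0.01 with the length trend removed). Galectins, S100 proteins and annexins were higher in RMA in 14 of 17 cases (median 0.29, range 0.28 to 0.50), 4 of them at an unadjusted p under 0.05 (23.5% against 4.27% of all genes), or 2 without RMA-KR late 3. S100a6 and S100a10 stood at 324, 353 and 367 CPM against 244, 209 and 127 CPM and 1148, 1218 and 869 CPM against 753, 685 and 549 CPM, without overlap.

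The summed level of 12 B cell genes was 386, 340.4 and 341 CPM against 493.4, 585 and 409 CPM, most of it Ighm, whose transcript was also present in untreated mice. Fcmr and Blk had at most 3 counts in each library, while Cd79b, a chain of the B cell receptor complex, stood at 3.87, 3.44 and 0.946 CPM against 3.56, 17.4 and 16.6 CPM and was highest in the same 2 libraries as Igkc. Summed macrophage and monocyte genes stood at 1648, 1412 and 1335 CPM against 1788, 1605 and 1939 CPM, nearly all of it Ccr2, which NK cells also express. Adgre1, C1qa and C1qb had no count in any of the 6, whereas Cd68 stood at 28.1, 24.8 and 47.8 CPM against 77.99, 59.4 and 36.2 CPM and Lyz2 at 5.50, 8.37 and 1.79 CPM against 0.534, 11.03 and 0 CPM. Summed dendritic cell genes stood at 921, 809.8 and 1133 CPM against 1062, 1052 and 869 CPM, mostly Itgax, another gene of NK cells. Summed granulocyte genes reached at most 17.2 CPM, in RMA late 2, which held 52 counts of Ngp, 51 of Mpo, 28 of S100a9, 27 of S100a8 and 20 of Elane. RMA-KR late 3 held 33 counts of Csf3r, and Ltf, Cxcr2, Ly6g and Lcn2 had no count in any of the 6. Red blood cell genes, led by Car2, summed to 953, 897 and 728 CPM against 766, 996 and 816 CPM with both adult α-globin genes at most at 3 counts, and platelet genes to 59.8, 30.2 and 47.8 CPM against 69.3, 64.999 and 134 CPM, mostly Itgb3. Of 8 ligand genes listed for NKG2D, 5 were found in the deposited counts: Raet1d, Raet1e, H60b, H60c and Ulbp1. The gene of Rae1-β was not among these 5. Their summed level was 52.3, 54.2 and 57.8 CPM against 58.4, 47.2 and 65.3 CPM, nearly all Ulbp1, with Raet1d at 0 and Raet1e at most at 3 counts in each library. The part of such cells in the results was not tested.

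**Figure D5:**
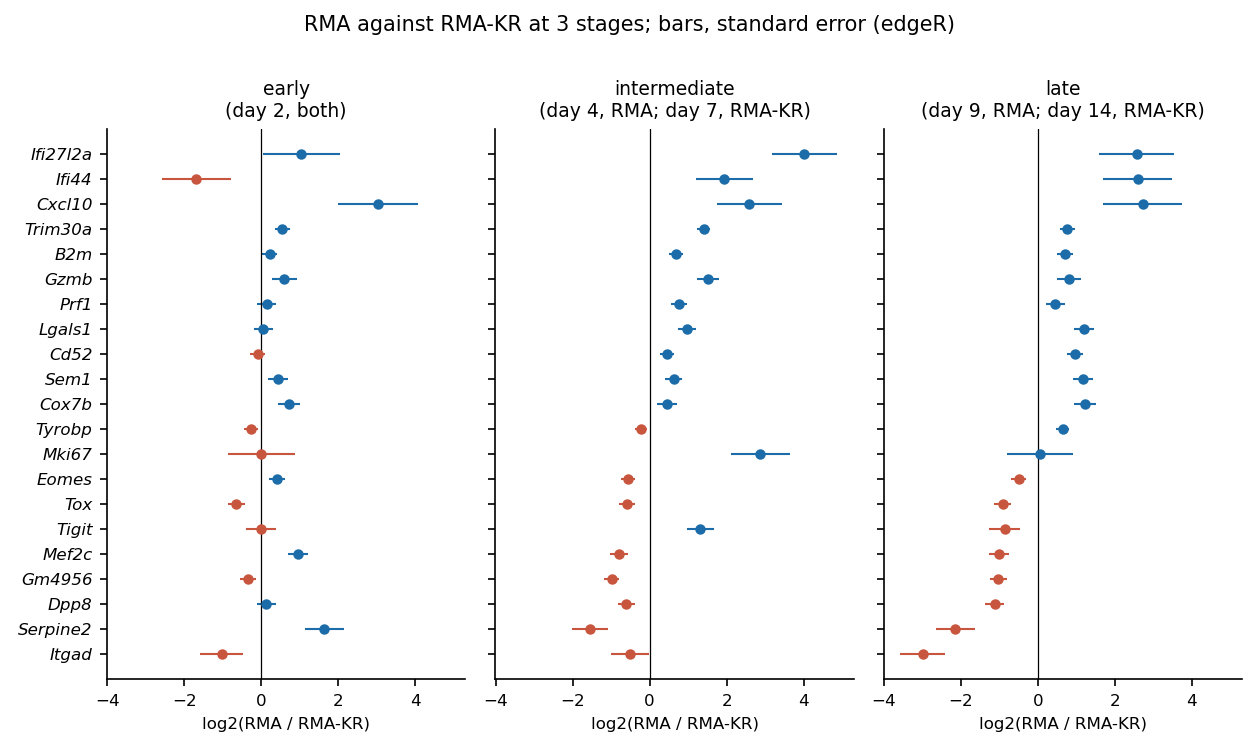
log2 fold change of RMA over RMA-KR with its standard error (edgeR) for 21 named genes in the early, intermediate and late mice, which are separate libraries. Interferon-stimulated genes lie to the right in the intermediate and late panels, and Serpine2 and Mef2c lie to the right in the early panel and to the left in the later ones.

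The earlier stages give the same contrast in other mice, on the same day for both tumors only on day 2. With edgeR, 52 of 17097 genes (0.304%) were called on day 2, 30 higher in RMA and 22 higher in RMA-KR, and 86 (0.503%) at the intermediate stage, 82 higher in RMA and 4 higher in RMA-KR. The 4 were Cd7, Ip6k1, Rnf167 and Kdm5b, named after their values were seen. Both numbers called were lower with the replicate block and higher by DESeq2, as given in the section on processing below. A test of whether the change from early to late differed between the tumors called 0 genes (0%) by edgeR, with 1777 at an unadjusted p under 0.05, while DESeq2 called 154 with default settings and 72 with shrunken fold changes. The smallest adjusted p of that edgeR test was 0.0745.

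Serpine2 and Mef2c were close to that threshold, with edgeR adjusted p values of 0.0831 for both genes. Their log2 fold changes were 1.64 and 0.96 on day 2, -1.55 and -0.80 at the intermediate stage and -2.15 and -1.01 late. Trim30a was higher in RMA at each stage, with values of 0.55 on day 2 and 1.41 at the intermediate stage, where edgeR's adjusted p was 0.000126. Gzmb had 0.60 on day 2 and 1.51 at the intermediate stage (adjusted p 0.00771 by edgeR). Lgals1 had 0.06 and 0.97, and Gm4956 -0.34 and -0.98. Itgad had -1.03 and -0.50, so that its late difference was the largest of the 3 in size. Mki67 had 2.88 at the intermediate stage and 0.06 late.

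Across the biological process terms in the deposited annotation, 553 terms held at least 20 genes of at least 10 CPM, and 237 had a median above 0, with medians from -0.40 to 0.54. Among the highest were proteasomal ubiquitin-independent protein catabolism (20 genes, 0.54), mitochondrial translation (31 genes, 0.48), assembly of respiratory complex I (41 genes, 0.44), cellular response to interferon-β (32 genes, 0.36, with 27 higher in RMA) and translation (221 genes, 0.35). Among the lowest were positive regulation of neuron differentiation (35 genes, -0.40), negative regulation of signal transduction (28 genes, -0.35), glucose homeostasis (45 genes, -0.34) and TGF-β receptor signalling (35 genes, -0.31, with 28 higher in RMA-KR). Terms share genes, and the terms named were chosen by their medians. These medians are from the fit without the trend on transcript length removed, and the part of that trend in their order was not tested.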

How the data were processed

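NK cells sorted from mouse spleens were sequenced by the submitters from polyadenylated RNA (Lexogen kit, single reads), in 24 libraries of 7 groups. The authors trimmed reads with cutadapt 1.10, removed ribosomal RNA reads with Bowtie2 2.2.8, aligned the rest to mm10 with STAR 2.5.3a and counted reads per gene with HTSeq 0.6.1p1. The deposited table holds whole-number raw counts for 45237 genes in 24 columns, which were used. Its 48 other per-library columns and the authors' own columns of comparisons, made with DESeq2 1.16.1, were not used.

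Analysis was in R 4.3.3. edgeR 4.0.16 (with limma 3.58.1) fitted a quasi-likelihood model to all 24 libraries with 1 mean per group, TMM scaling, a filter on low counts and robust estimates of spread. Calls needed an adjusted p (Benjamini-Hochberg) below 0.05 and a change of more than 2-fold. The steps were tested on simulated counts whose spread was set lower than that of these data. That check therefore cannot tell how many calls are missed or false here. DESeq2 1.42.0 was run with default settings and with shrunken fold changes (betaPrior), with untreated mice as the reference level. Other alternatives were size factors and upper-quartile scaling, no filter, at least 10 counts in every library, only the 6 late libraries, a replicate block, leaving out each late library, and removal of a trend on transcript length.

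The genes named were, by rule, those called; the 8 highest and 8 lowest log2 fold changes at an unadjusted p under 0.05 without overlap and with a mean of at least 10 CPM; a fixed list; and up to 4 members of each gene list with the smallest unadjusted p under 0.05. The members of the fixed list and the gene lists were chosen with earlier results of these data known. Some items are not reported here. Lists were described by counts and medians, without set tests. A fold change is not given where all libraries of a group had at most 3 counts, the floor. Floors cover counting error only.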

Additional observations from a re-analysis of the deposited data

Results flagged for a closer look

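Over 117 named genes and the 2 groups with more than 3 libraries, 234 sets of values were examined for a single library far from the rest of its group, and 12 such values were found, in 12 genes. Chance alone gives such a value in about 1 in 20 groups. No value came from the 6 late libraries, whose groups of 3 are too small for this check, but the untreated mice serve above as the reference for each gene.

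In untreated mice, control 3 was apart for 4 genes. Ifi27l2a was high there, at 6.00 CPM against 0.625 to 0.772 CPM in the other 3, and the large SD of its untreated mean rests on this library. Smc2, a condensin subunit, was also high, at 77.6 CPM against 40.1 to 45.8 CPM. Pdk2 and Lamp1 were low, at 20.3 CPM against 45.1 to 48.7 CPM and 172 CPM against 271 to 288 CPM. Control 1 was low for Socs1, at 9.43 CPM against 24.02 to 25.1 CPM, and for Rps14, a ribosomal protein, at 264 CPM against 329 to 334 CPM. Control 2 was high for Jak1, at 3037 CPM against 2561 to 2616 CPM.

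In the intermediate mice with RMA-KR, library 2 was apart for 4 genes. Itgad was low, at 18.5 CPM against 41.4 to 48.1 CPM in the other 4, and Ndufa4 was low, at 65.7 CPM against 86.7 to 94.8 CPM. Csf2 and H2-T23 were high, at 4.32 CPM against 1.93 to 2.57 CPM and 671 CPM against 536 to 572 CPM. Library 1 of the same group was high for Csf1r, a macrophage receptor, at 6.25 CPM against 0 to 1.49 CPM. The cause of these values was not tested.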

How the results depend on the processing

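By edgeR, 0 genes were called in the late comparison, with 1249 at an unadjusted p under 0.05. The number called was 56 by DESeq2 with default settings, 12 by DESeq2 with shrunken fold changes, 28 without a filter on counts and 0 to 2 with 1 late library left out. The 2, without RMA-KR late 2, were Thoc5 and Cdh22, named after their values were seen. It stayed at 0 by edgeR with other scalings, at least 10 counts in every library, only the 6 late libraries, the replicate block and the length trend removed, an alternative chosen after seeing the data.

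Genes at an unadjusted p under 0.05 were 730 higher in RMA and 519 higher in RMA-KR. Without a filter they were 1612 and 1104, and with only the 6 late libraries 227 and 343, where fewer genes (11556) were tested and the spread was estimated from fewer libraries. With at least 10 counts in every library the former was 378, of 7800 genes tested. Leaving out 1 late library gave 292 to 967 and 270 to 762.

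The early comparison had 52 genes called by edgeR, and 338 and 234 by DESeq2 with default settings and with shrinkage, 188 without a filter, 79 with at least 10 counts in every library and 17 with the replicate block. The intermediate comparison had 86, and under the same settings 340, 199, 272, 97 and 42. The difference between the tumors in the change from early to late had 0 by edgeR (1777 at an unadjusted p under 0.05), and 154, 72, 115, 5 (Mef2c, Ndufaf7, Serpine2, Nsmaf and Rab35) and 2 (Serpine2 and Nsmaf). The cause was not tested. Late libraries of the same replicate number correlated at -0.00675, 0.075 and 0.0818, after removal of group means, and those of different numbers at -0.161 to 0.107. Whether the numbers pair the mice cannot be told from so few values, and the other stages were not examined for it.

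Of 1719 log2 fold changes of 117 named genes under the alternatives, 1659 kept their direction and side of the threshold, 40 (23 genes) passed it and 20 (9 genes) changed sign. Since the main edgeR fit called 0 genes, keeping the side means staying uncalled, and no value could fall below the threshold. The log2 fold change of Klrk1 was -0.0104 with DESeq2 size factors, -0.0128 and -0.0124 by DESeq2 with default settings and with shrinkage, -0.0146 with only the 6 late libraries and -0.0179 with the length trend removed. Ccl5 was -0.0901 with that trend removed. With 1 late library left out, Klrk1 lay between -0.18 and 0.18, Mki67 -0.0509 and 0.18, Cd69 -0.37 and 0.10, Csf2 -1.01 and 0.55, Ccl3 -0.0038 and 0.21, Ccl5 -0.13 and 0.24, Itga1 -0.44 and 0.93, Klra4 -0.21 and 0.0864, and Lamp1 -0.19 and 0.0947. The cause was not tested. Of 566 medians of 38 lists, 484 moved by less than the SD between libraries and 82 by more.

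The biological coefficient of variation was 0.852 over the 24 libraries. Genes below 10 CPM (8837 of those tested) rest on few counts, and 2376 had 1 late group at the floor of 3 counts.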
